A study of Mus musculus with 4 samples.

Results

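The genes described here are those of mitosis and the spindle checkpoint, 40 genes listed by name. They were read from the table of array values by their gene symbol, and where a gene had more than 1 row the row with the highest mean log2 intensity over the 4 arrays was taken. Of the 40, 39 had a row with a single gene symbol, out of 22180 genes in all. Ccnb1 is not analysed here. The samples were fibroblasts from mice, in a wild-type group labelled WT and a group labelled Zip13KO, each with 2 arrays that the labels call biological replicates. Zip13 is the protein of Slc39a13, a zinc transporter of the secretory pathway, and the study's stated interest is how local zinc balance bears on the Golgi and the perinuclear region. The labels give no age, strain or passage number, do not say which part of the gene was altered, and name no animal or culture for a replicate. The spread behind each p-value is thus only that among these 4 samples, and some of it may be technical.

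At mitosis, cyclins of the A and B types switch on the kinase Cdk1, the chromosomes condense, and the kinetochores at the centromeres attach them to spindle microtubules. The spindle checkpoint holds back the anaphase-promoting complex, a ubiquitin ligase, until every chromosome is attached. The complex then marks cyclin B and securin for destruction, the sister chromatids part and the cell divides. Many of these genes are transcribed late in the cycle, under the MuvB complex with B-Myb and Foxm1, so their RNA in a culture is commonly read as a sign of how many cells are dividing. In RNA from a whole culture, a change in the share of dividing cells and a change in RNA per dividing cell cannot be told apart.

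Array values were compared as log2 intensity, and a difference of 1 on this scale is a 2-fold change. The arrays had median intensities between 94.5 and 96.1, and arrays of a group correlated at 0.994 (Pearson's r over rows), arrays of different groups at 0.983 to 0.985. Slc39a13 did not pass the test, at 0.04 log2 units (95% interval -0.12 to 0.20). Where its probes lie with respect to the alteration is unknown, so this value checks nothing about the labels. Of 12 fibroblast markers measured, 10 were brighter than the median gene; 6 were lower on the Zip13KO arrays, and only Pdgfra, the receptor of platelet-derived growth factor, was higher. Of 6 smooth muscle markers 4 were lower, and their summed intensity was 9860 to 10400 on the WT arrays and 2840 to 2860 on the Zip13KO arrays. Among 10 macrophage markers 1 was higher and 2 were lower, with summed intensities of 913 to 981 and 923 to 941, and 2 of the 10 were brighter than the median gene. No marker of T and B cells, endothelium, epithelium, Schwann cells and melanocytes, or skeletal muscle passed the test. Whether the fall of the contractile and fibroblast markers has a part in the values below was not tested.

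Of the mitosis genes, Ccnb2, Cdc25b, Bub1b and Mybl2 rose in Zip13KO, Cdc20 and Cenpe fell, and the other 33 did not pass. In the fit over all genes (limma, Benjamini-Hochberg adjusted p under 0.05), 4 of the 39 were higher on the Zip13KO arrays, against 7% of all genes, and 2 were lower, against 10.1%. In either direction, 6 of the 39 and 17.1% of all genes were called. The median difference over the 39 was -0.00089 log2 units, with 19 above 0 and 20 below, and the median over all genes was -0.0034. Between them the differences ran from -0.32 to 0.55, and none of the 39 reached 2-fold. All 39 were bright enough to pass a filter on low values, and of the 8333 genes at least as bright as the dimmest of them, a limit set after seeing the data, 34.4% were called.

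**Figure D1:**
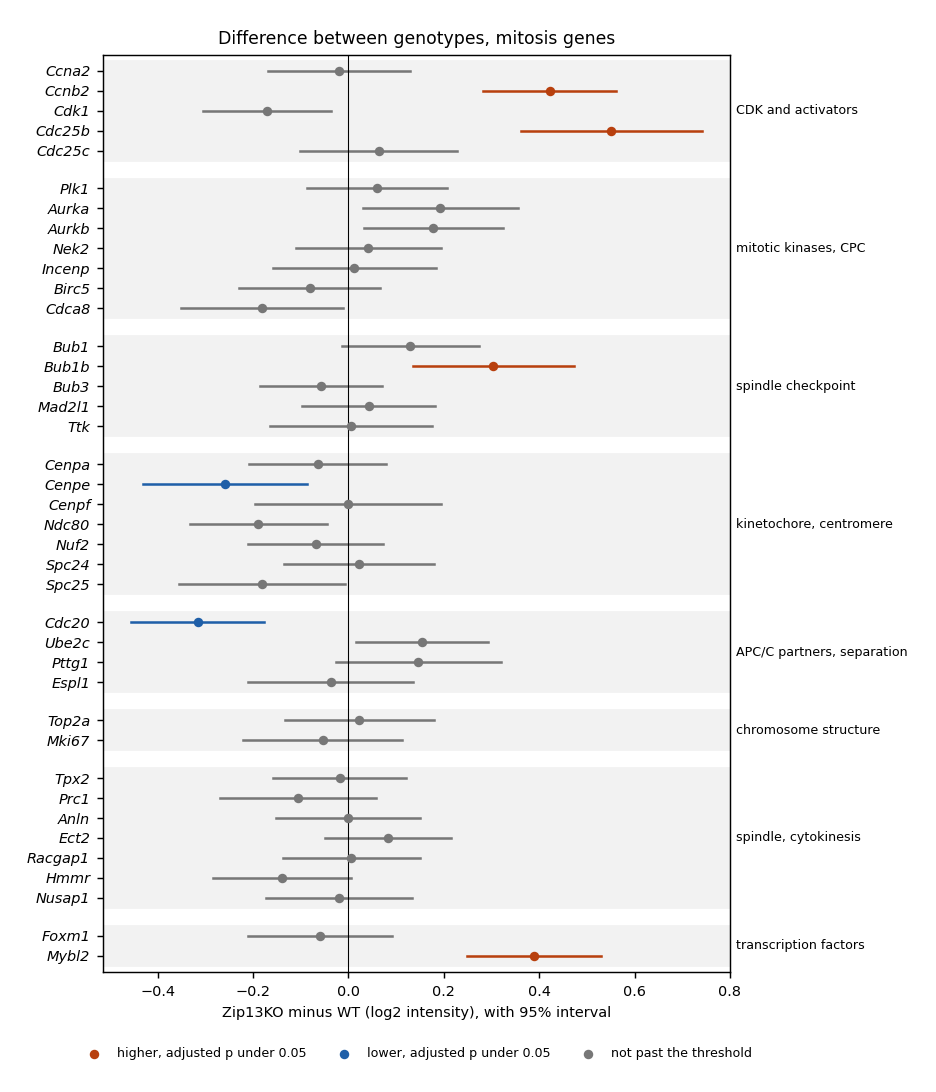
Difference between the genotypes for each of the 39 mitosis genes, in log2 intensity, with the 95% interval of the limma fit; colours mark the genes past an adjusted p of 0.05. Ccnb2, Cdc25b, Bub1b and Mybl2 lie above 0, Cdc20 and Cenpe lie below it, and the points of the other 33 genes lie between -0.19 and 0.19.

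The intervals show how large a change could have been missed, given the spread among these 4 samples. For 36 of the 39 the whole 95% interval lay between -0.5 and 0.5 log2 units, that is within 1.41-fold either way. The same held for 19959 of all 22180 genes. The exceptions among the 39 were Ccnb2, Cdc25b and Mybl2. The standard errors ran from 0.06 to 0.09 log2 units.

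The promoters of the 4 genes with the smallest adjusted p are shown because they hold, or lack, the sequence elements by which late cell cycle genes are known. The windows run from 250 bases before the annotated start to 50 bases after it, in RefSeq's GRCm38.p6, 5′ to 3′ on the gene's strand. Capitals mark TTTGAA and TTCGAA, forms of the cell cycle genes homology region (CHR) that the MuvB complex binds, and CCAAT, the element bound by NF-Y. All were searched on both strands, and ATTGG in capitals is CCAAT on the other strand.
Ccnb2: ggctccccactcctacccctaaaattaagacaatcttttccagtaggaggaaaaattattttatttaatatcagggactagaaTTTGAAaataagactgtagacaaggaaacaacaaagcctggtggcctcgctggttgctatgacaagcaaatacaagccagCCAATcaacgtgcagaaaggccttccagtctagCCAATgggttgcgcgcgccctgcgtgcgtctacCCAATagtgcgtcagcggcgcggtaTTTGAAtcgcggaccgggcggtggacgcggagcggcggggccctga
Cdc25b: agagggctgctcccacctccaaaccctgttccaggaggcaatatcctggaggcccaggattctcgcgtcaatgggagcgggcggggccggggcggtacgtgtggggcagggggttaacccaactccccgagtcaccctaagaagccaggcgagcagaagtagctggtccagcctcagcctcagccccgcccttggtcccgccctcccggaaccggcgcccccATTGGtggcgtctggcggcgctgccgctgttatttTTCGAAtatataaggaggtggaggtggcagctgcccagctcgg
Mybl2: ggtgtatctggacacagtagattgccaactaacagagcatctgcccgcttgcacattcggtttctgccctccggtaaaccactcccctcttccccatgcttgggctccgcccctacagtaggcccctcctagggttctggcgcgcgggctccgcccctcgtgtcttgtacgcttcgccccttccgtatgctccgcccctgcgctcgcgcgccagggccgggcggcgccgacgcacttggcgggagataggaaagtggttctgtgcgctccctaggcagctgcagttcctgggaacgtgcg
Cdc20: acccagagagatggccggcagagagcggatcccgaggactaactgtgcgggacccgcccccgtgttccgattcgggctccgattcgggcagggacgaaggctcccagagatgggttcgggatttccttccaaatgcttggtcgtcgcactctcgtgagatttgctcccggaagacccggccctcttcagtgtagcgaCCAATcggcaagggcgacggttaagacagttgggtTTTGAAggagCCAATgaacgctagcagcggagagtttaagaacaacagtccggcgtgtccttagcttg
Ccnb2 lies at chr9:70421505-70421804 on the minus strand, Cdc25b at chr2:131186698-131186997 on the plus strand, Mybl2 at chr2:163054385-163054684 on the plus strand and Cdc20 at chr4:118437294-118437593 on the minus strand. The marked matches do not overlap each other.

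Among the genes printed above, picked for the smallest adjusted p, those with a CHR changed in opposite directions. In Ccnb2, which was higher on the Zip13KO arrays, TTTGAA begins 4 bases after the start base and again 167 bases before it, with CCAAT at 21, 54 and 87 bases before it. In Cdc25b, also higher, TTCGAA begins 7 bases after the start base and a reversed CCAAT 28 bases before it. In Cdc20, which was lower, TTTGAA begins 18 bases before the start base and lies between CCAAT at 53 and 8 bases before it. The Mybl2 window held none of these letters, which says nothing on the factors that bind there.

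The same elements were common among the mitosis genes as a whole. Of the 39 genes 32 had a window in the table, and the first listed was used where there were several. TTTGAA or TTCGAA was found in 24 of the 32 (75%), against 19.4% of 27025 genes, and CCAAT in 24 (75%), against 37.9%. Both kinds stood together in 22 of the 32 (68.8%), against 7.7% of all genes. Of the 24 genes with a CHR, 3 were higher, 1 was lower and 20 did not pass. Their median difference was -0.0012 log2 units, with a range of -0.32 to 0.55. Of the 8 without one, 1 was higher and 1 was lower, with a median of 0.01. Of all genes, 7% were higher and 10.1% were lower. Of genes at least as bright as the dimmest mitosis gene, 34.4% were called in either direction. The match is a description of letters in these windows and not evidence of binding.

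Among the cyclin-dependent kinase and its activators, the cyclin Ccnb2 and the phosphatase Cdc25b rose and the other 3 genes measured did not pass. Over all genes, 17.1% were called in either direction. Ccnb2, whose protein activates Cdk1, stood at 10.24 and 10.23 on the WT arrays and at 10.70 and 10.61 on the Zip13KO arrays. Both Zip13KO arrays lay above both WT arrays, by more than the gap within either group. The difference was 0.42 log2 units (SE 0.07, n = 2 each), or 1.34-fold (limma adjusted p = 1.40e-04). Cdc25b, the phosphatase that removes the inhibitory phosphates of Cdk1 early in mitotic entry, gave 8.07 and 7.86 in WT and 8.41 and 8.62 in Zip13KO. The groups did not overlap, although Zip13KO replicate 2 lay 0.20 above replicate 1 and the WT arrays stood further apart than in any other mitosis gene. The difference was 0.55 (SE 0.09), or 1.46-fold (adjusted p = 2.16e-04), the largest estimate among the 39, with an interval of 0.36 to 0.74.

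The kinase itself had a difference below 0 and did not pass. Cdk1 read 10.62 and 10.61 in WT and 10.42 and 10.47 in Zip13KO. Its groups did not overlap, and its difference of -0.17 had an adjusted p of 0.0831 in limma (interval -0.31 to -0.04). Cdc25c, the related phosphatase, was at 8.67 and 8.59 in WT and 8.62 and 8.77 in Zip13KO, so the groups overlapped, and its difference was 0.06 (interval -0.10 to 0.23). Ccna2, the cyclin of S phase and early mitosis, read 11.20 and 11.01 in WT and 11.03 and 11.14 in Zip13KO. The WT arrays enclosed the Zip13KO arrays, and the difference was -0.02 (interval -0.17 to 0.13).

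None of the 7 mitotic kinases and chromosomal passenger proteins passed in limma. Aurka, Aurkb and Cdca8 had an unadjusted p under 0.05, as did 25.9% of all genes. Aurka, which works at the spindle poles, gave 9.67 and 9.51 in WT and 9.72 and 9.85 in Zip13KO, a difference of 0.19 (limma adjusted p = 0.109). Aurkb, the kinase of the passenger complex at the centromere, gave 9.91 and 9.87 in WT and 10.02 and 10.11 in Zip13KO, a difference of 0.18 (adjusted p = 0.0935). Both Aurora kinases had each Zip13KO array above each WT array, and both passed after a further quantile normalization of the arrays (adjusted p = 0.0212 and 0.0194). The partners of Aurkb in the complex did not share its sign throughout. The borealin gene Cdca8 was at -0.18 (adjusted p = 0.159), survivin (Birc5) was at -0.08 and the scaffold Incenp was at 0.01. Plk1, which acts in mitotic entry, spindle formation and cytokinesis, was at 0.06 with overlapping groups, and the centrosomal kinase Nek2 was at 0.04.

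Of 5 spindle checkpoint genes, 1 passed, against 17.1% of all genes. Bub1b encodes BubR1, part of the complex that holds Cdc20 inactive, and it stood at 9.45 and 9.37 in WT and 9.60 and 9.83 in Zip13KO. The lower Zip13KO array was nearer to WT than to its own replicate. Bub1b rose by 0.30 (SE 0.08), or 1.23-fold (limma adjusted p = 0.0114). The call was lost when Zip13KO replicate 2 was left out, where the difference was 0.19 (adjusted p = 0.140), when WT replicate 2 was left out (0.26, adjusted p = 0.0734), and when all rows of the table were fitted and adjusted together (adjusted p = 0.140). Its partner kinase Bub1 was at 0.13, with the Zip13KO arrays at 9.76 and 9.78 above WT at 9.65 and 9.62 (adjusted p = 0.254). The checkpoint effector Mad2l1 (0.04), the kinase Ttk (0.0047), which starts checkpoint signalling, and Bub3 (-0.06) had intervals that spanned 0.

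Of 7 kinetochore and centromere genes, 6 had a difference below 0, against 11324 of all 22180 genes, and 1 passed, against 17.1%. Cenpe, a kinesin that moves chromosomes to the spindle equator, read 9.59 and 9.46 in WT and 9.16 and 9.37 in Zip13KO. The groups did not overlap, but their gap varied: Zip13KO replicate 1 lay 0.43 below WT replicate 1, and Zip13KO replicate 2 lay 0.09 below WT replicate 2. Cenpe fell by 0.26 (SE 0.08), with a limma adjusted p of 0.0357. This call was lost with WT replicate 1 left out (-0.19, adjusted p = 0.267), with Zip13KO replicate 1 left out (-0.15, adjusted p = 0.311), and in 4 other settings. Ndc80, the microtubule-binding subunit of the outer kinetochore, was at 9.82 and 9.85 in WT and 9.64 and 9.66 in Zip13KO. Its groups did not overlap, its arrays within a group agreed to 0.03 or better, and its difference of -0.19 had an adjusted p of 0.0687, or 0.0456 with a filter on low values. The other subunits of the same complex stood at -0.07 (Nuf2), -0.18 (Spc25, adjusted p = 0.172) and 0.02 (Spc24). The centromeric histone Cenpa was at -0.06, and Cenpf, a late cycle kinetochore protein, was at -0.00089.

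Of the 4 genes of the anaphase-promoting complex's partners and chromosome separation, Cdc20 fell and the other 3 did not pass. Over all genes, 17.1% were called in either direction. The protein of Cdc20 activates the anaphase-promoting complex and is the target of the checkpoint. Cdc20 stood at 10.35 and 10.32 in WT and at 10.00 and 10.04 in Zip13KO. Arrays of a group were no further than 0.05 apart, with no overlap between groups. Cdc20 fell by 0.32 (SE 0.07), or 1.24-fold (limma adjusted p = 0.00209), and remained lower and past the threshold in every alternative run. The ubiquitin-conjugating enzyme of the complex, Ube2c, was at 10.50 and 10.53 in WT and 10.62 and 10.72 in Zip13KO, a difference of 0.15 (adjusted p = 0.134). It passed only after the further quantile normalization (adjusted p = 0.0325) and with crossed replicate numbers, a setting chosen after seeing the data. Securin (Pttg1) was at 0.15 (adjusted p = 0.293) and separase (Espl1), the protease that securin holds back, was at -0.04.

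Mki67 and Top2a, taken here as general markers of dividing cells, did not separate the genotypes. Genes of DNA replication are given further below. Mki67, the antigen Ki-67 that coats mitotic chromosomes, read 10.62 and 10.55 in WT and 10.40 and 10.67 in Zip13KO. The Zip13KO arrays enclosed the WT arrays, and the difference was -0.05 (interval -0.22 to 0.11). Top2a, which disentangles chromosomes, read 10.63 and 10.49 in WT and 10.49 and 10.67 in Zip13KO. Its groups overlapped too, and the difference was 0.02 (interval -0.13 to 0.18).

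None of the 7 genes of spindle assembly and cytokinesis passed in limma, and none had an unadjusted p under 0.05, against 25.9% of all genes. Their differences ran from -0.14 for Hmmr, a spindle-associated receptor of hyaluronan, to 0.08 for Ect2, the exchange factor that activates RhoA at the division plane. Between these lay Prc1, which bundles midzone microtubules (-0.11), Nusap1 (-0.02), the Aurka activator Tpx2 (-0.02), anillin (Anln, -0.0016) and Racgap1, a partner of Ect2 (0.0059). For 5 of the 7 the arrays of the groups overlapped.

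Of the transcription factors, Mybl2 rose and Foxm1 did not pass, beside 17.1% of all genes called. Mybl2 encodes B-Myb, which joins MuvB to switch on late cycle genes, and it stood at 9.84 and 9.80 in WT and at 10.20 and 10.22 in Zip13KO. The gap between groups was far wider than that within them. Mybl2 rose by 0.39 (SE 0.07), or 1.31-fold (limma adjusted p = 3.37e-04), in every alternative. It was the only member with a further row, which was dimmer and gave a difference of 0.13 in the same direction. Foxm1 stood at 9.72 and 9.76 in WT and at 9.62 and 9.75 in Zip13KO, and its difference was -0.06 (interval -0.21 to 0.09).

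**Figure D2:**
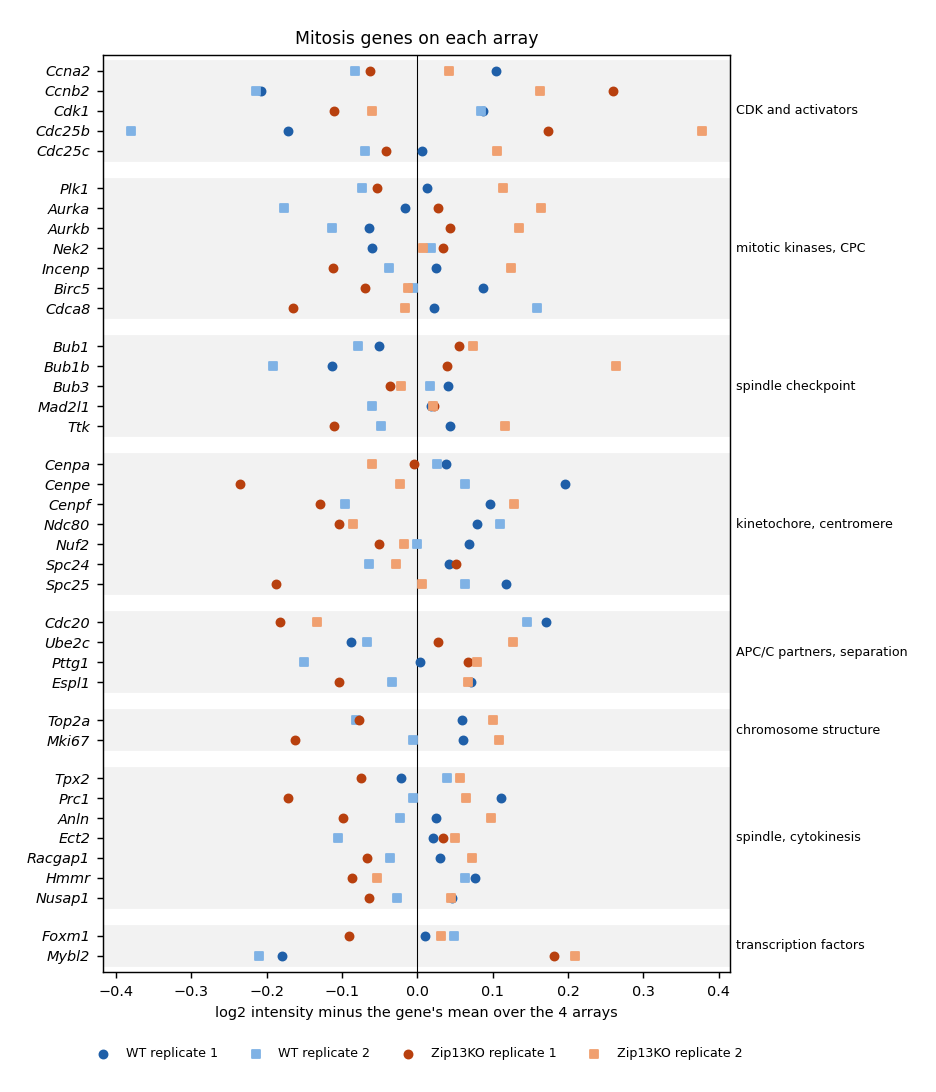
Log2 intensity of the 39 mitosis genes on each of the 4 arrays, as the distance from the gene's own mean; blue marks WT, orange marks Zip13KO, circles replicate 1 and squares replicate 2. For 11 genes both Zip13KO points lie right of both WT points, for 11 they lie left of them, and for 17 the groups overlap.

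Across the list the groups did not overlap for 22 of the 39, against 51.5% of all genes. Both Zip13KO arrays were above both WT arrays for 11, against 24.1% of all genes, and below them for 11, against 27.3%. With so few arrays the smallest two-sided p of an exact permutation test is 0.333, and the calls rest on the moderated variance of limma.

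Most of the genes leaned one way between the replicates of a genotype. In WT, 33 of the 39 genes were higher on replicate 1 than on replicate 2, by a median of 0.07 log2 units. In Zip13KO, 34 of the 39 were higher on replicate 2 than on replicate 1, by a median of 0.11. Both patterns were found together in 29 genes, against 35.9% of all genes and 49.7% of those at least as bright as the dimmest mitosis gene, and in 19 after a further quantile normalization. The rest of the table leaned the same way to a lesser degree: 60.6% of all genes were higher on WT replicate 1 and 54.7% on Zip13KO replicate 2, and the shares were 69.8% and 65.5% among genes at least as bright as the dimmest mitosis gene, with medians of 0.05 and 0.04. After a further quantile normalization the counts were 23 and 25 of 39, with medians of 0.02 and 0.05, while the shares of those bright genes were 49.5% and 53.5%. With 1 array on each side there is no test of these gaps, and their cause was not tested.

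**Figure D3:**
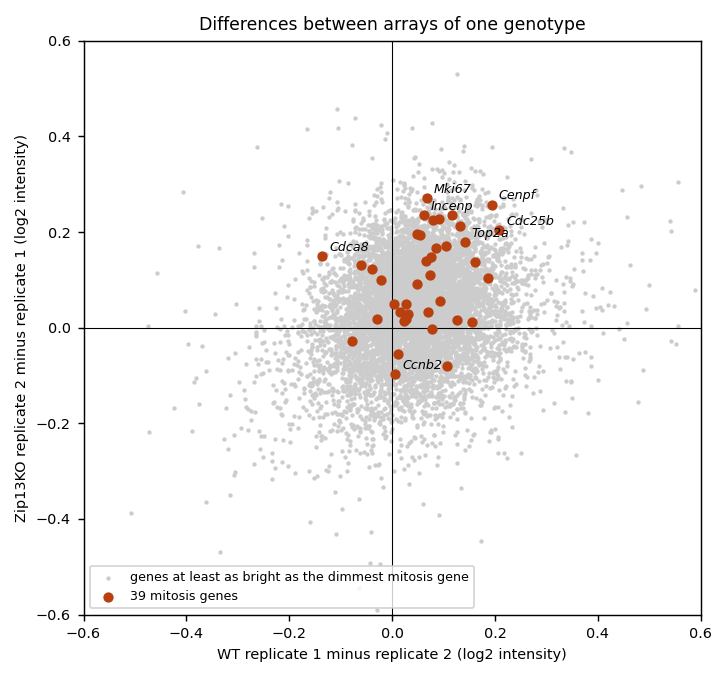
Difference between the arrays of a genotype for each gene, with WT replicate 1 minus replicate 2 across and Zip13KO replicate 2 minus replicate 1 upward, both in log2 intensity. Of the 39 mitosis genes (orange) 29 lie above 0 on both axes; the grey points are genes at least as bright as the dimmest of them, and the axes end at -0.6 and 0.6.

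The widest gaps between the Zip13KO arrays were those of a chromosome coat protein, a kinetochore protein, a midzone protein and a passenger protein. Mki67 was 0.27 higher on replicate 2, Cenpf 0.26, Prc1 0.24 and Incenp 0.24. Ccnb2 went against them, at -0.10, as did Spc24 (-0.08), Cenpa (-0.05), Nek2 (-0.03) and Mad2l1 (-0.0019). In WT the widest gaps, replicate 2 minus replicate 1, were those of Cdc25b (-0.21), Cenpf (-0.19) and Ccna2 (-0.19), and Cdca8 was the furthest the other way, at 0.14.

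The sign of the median mitosis gene differed with the arrays set side by side. Zip13KO replicate 1 was above WT replicate 1 for 13 of the 39 genes, with a median difference of -0.10. Zip13KO replicate 2 was above WT replicate 2 for 26, with a median of 0.11. The remaining combinations gave medians of -0.03 (Zip13KO replicate 1 against WT replicate 2) and 0.03 (Zip13KO replicate 2 against WT replicate 1). Among all genes the 4 medians lay between -0.02 and 0.01, and among the equally bright genes between -0.07 and 0.01. After the further quantile normalization, Zip13KO replicate 1 was above WT replicate 1 for 18 of the 39, with a median of -0.01, and Zip13KO replicate 2 above WT replicate 2 for 26, with a median of 0.08. With 1 array left out, the median of the fitted differences of the 39 was 0.04 without WT replicate 1, -0.04 without WT replicate 2, 0.05 without Zip13KO replicate 1 and -0.07 without Zip13KO replicate 2. Ccnb2, Cdc25b, Mybl2 and Cdc20 kept their call in each of these 4 fits.

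The differences were also set beside the genes' positions on the chromosomes. Of the 4 genes that rose, Cdc25b, Bub1b and Mybl2 lie on chromosome 2, as does Slc39a13, and 9 of the 39 mitosis genes lie there. These 9 had a median difference of 0.15, against 0.01 for the 1062 expressed genes of chromosome 2. For each mitosis gene the neighbours were taken as the 25 expressed genes on either side, or as many as the chromosome's end allows, in the gene order of GRCm38.p6. The neighbours' median ran from -0.18 around Ccna2 to 0.12 around Bub1. It was 0.11 around Cdc25b, 0.04 around Bub1b and 0.04 around Mybl2, each smaller than the gene's own difference, and -0.02 around Ccnb2. Around Cdc20, on chromosome 4, it was -0.10, and around Cenpe, on chromosome 3, -0.03.

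Over the 39 genes, a gene's own difference and its neighbours' median had a Pearson's r of 0.31 and a Spearman's rho of 0.21, and 22 of the 39 had the same sign. Over all expressed genes r was 0.26, and over the 30 mitosis genes off chromosome 2 it was 0.11. These are descriptions across genes that share 4 arrays, and genes are not independent replicates. When low values were filtered out and each array was then centred on the neighbours' median, a joint alternative chosen after seeing the data, 5 of the 6 calls remained and that of Cenpe did not (-0.22, limma adjusted p = 0.0645). Cdc20 was then at -0.18 (adjusted p = 0.0379), so its fall shrank by more than 1.5 times. Another 4 passed with the filter and centring together, Ect2 higher (0.18, adjusted p = 0.0359) and Cdk1 (-0.21, 0.0152), Ndc80 (-0.24, 0.0102) and Hmmr (-0.21, 0.0189) lower, which made 5 higher against 12.4% of the 13719 genes in that fit, 4 lower against 13.6%, and 9 in all against 26%. The filter alone already added Ndc80 and gave 7 of 39, against 28.8% of all genes it kept. What lies behind the neighbours' differences was not tested.

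**Figure D4:**
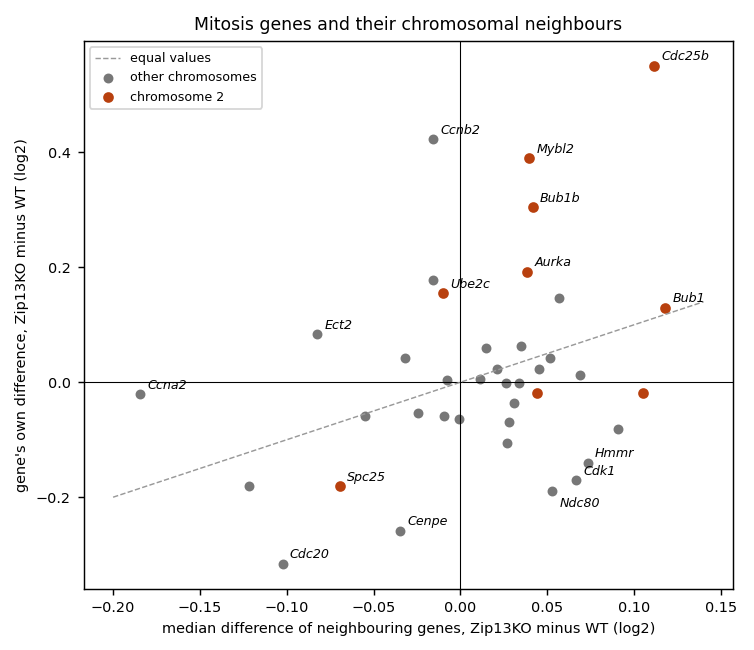
Difference between genotypes of each of the 39 mitosis genes (upward) against the median difference of its neighbours on the chromosome (across), both in log2 intensity; orange marks chromosome 2. Cdc25b, Mybl2, Bub1b and Ccnb2 lie far above the dashed line of equal values, and the neighbours' medians span only -0.18 to 0.12.

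Genes that act beside the 39 in mitosis had differences on both sides of 0 as well. Of 12 mitotic kinesins none was higher and 1 was lower in limma, against 7% and 10.1% of all genes (median difference 0.0078). Of the 12, 4 had an unadjusted p under 0.05, against 25.9% of all genes. Kif4, which compacts chromosomes, fell by 0.34, a call lost without WT replicate 1 (adjusted p = 0.0848). Leaving out 1 array gave 0 to 2 kinesins higher and 0 to 2 lower, with 2 higher without Zip13KO replicate 1 and 2 lower without Zip13KO replicate 2. All 12 were brighter on WT replicate 1 than on replicate 2, and all 12 on Zip13KO replicate 2 than on replicate 1. Of 53 other spindle, kinetochore and checkpoint genes measured, 5 were higher and 11 were lower, against 7% and 10.1% of all genes (median -0.03). Of genes at least as bright as the dimmest mitosis gene, 34.4% were called in either direction. Ckap2 (-0.54), Depdc1a (-0.53) and Mis18a (-0.47), which helps to load Cenpa, fell, and Ska3, of the complex that holds kinetochores to microtubules, rose by 0.40. Without WT replicate 1 the counts were 3 and 6, without WT replicate 2 they were 2 and 10, and without Zip13KO replicate 2 they were 3 and 11.

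Changes in both directions were found among subunits of the same complexes. Of 15 condensin and cohesin genes, 3 were higher and 3 lower (median -0.07), against 7% and 10.1% of all genes. Of genes at least as bright as the dimmest mitosis gene, 34.4% were called in either direction. The condensin subunit Smc2 fell by 0.67, while the subunit Ncaph rose by 0.30, a call lost without WT replicate 2 (adjusted p = 0.0921) or Zip13KO replicate 2 (0.0865), and the cohesin regulators Pds5a (0.36) and Wapl (0.33) rose. In 17 genes of the anaphase-promoting complex, 2 were higher and 4 lower (median -0.01). The shares of all genes and of the bright genes are those just given. Anapc10 (-0.48) and Cdc16 (-0.43) fell, and Anapc11 (0.38), the catalytic RING subunit, and the large scaffold subunit Anapc1 (0.34) rose. Single arrays moved some of these values. The median difference of the condensin and cohesin genes was -0.02 without WT replicate 1 and 0.01 without Zip13KO replicate 1. It was -0.06 without WT replicate 2 and -0.13 without Zip13KO replicate 2.

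Among 19 regulators of the RB, E2F and MuvB system, 3 were higher and 2 lower (median -0.00029), against 7% and 10.1% of all genes. Rbbp4, a histone-binding subunit of MuvB, fell by 0.40. E2f2 (0.29), E2f4 (0.22) and E2f8 (0.21) rose, but none of the 3 passed without WT replicate 2 (adjusted p = 0.103, 0.236 and 0.225). Those higher numbered 2 without WT replicate 1 and 1 without Zip13KO replicate 1. Of 40 DNA replication genes, 10 were higher, against 7% of all genes, and 5 lower, against 10.1% (median 0.03). All 40 were brighter than the median gene. Of genes at least as bright as the dimmest mitosis gene, 34.4% were called in either direction. Among the replication genes, Uhrf1 (0.44) and Chaf1a (0.43) were higher, and Orc6 (-0.48) and Gins2 (-0.40) were lower. Those higher numbered 5 without WT replicate 2 and 5 without Zip13KO replicate 2, and with all rows fitted together 1 was higher and 3 were lower.

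Outside mitosis, genes that restrain the cycle and some of its entry were also measured. Of 15 genes that slow the cycle, 9 were lower (60%), against 10.1% of all genes, and 2 were higher, against 7% (median -0.29). Of the 15, 14 were brighter than the median gene. Of genes at least as bright as the dimmest mitosis gene, 34.4% were called in either direction, though some of the 15 were dimmer than that. The Cdk inhibitor Cdkn1a fell by 1.60, Gadd45g by 1.15, Ccng1 by 1.07 and Cdkn2c, an inhibitor of the G1 kinases, by 0.64. The higher ones were Wee1, which phosphorylates Cdk1 to hold it inactive (0.26), and the inhibitor Cdkn2b (0.31). None of the list was higher without WT replicate 1, and 1 was higher with any of the other 3 arrays left out. Of 8 cyclins and kinases of G1, 3 were higher, against 7% of all genes, and none was lower in limma (median 0.07). Of the 8, 3 had an unadjusted p under 0.05, against 25.9% of all genes. All 8 were brighter than the median gene, so the share of 34.4% among bright genes stands beside them too. Cdk6 rose by 1.06, Ccnd1 by 0.96 and Ccnd2 by 0.27, the last not without WT replicate 2 (adjusted p = 0.0577) or Zip13KO replicate 2 (0.0530). No difference between these lists and the mitosis genes was tested.

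**Figure D5:**
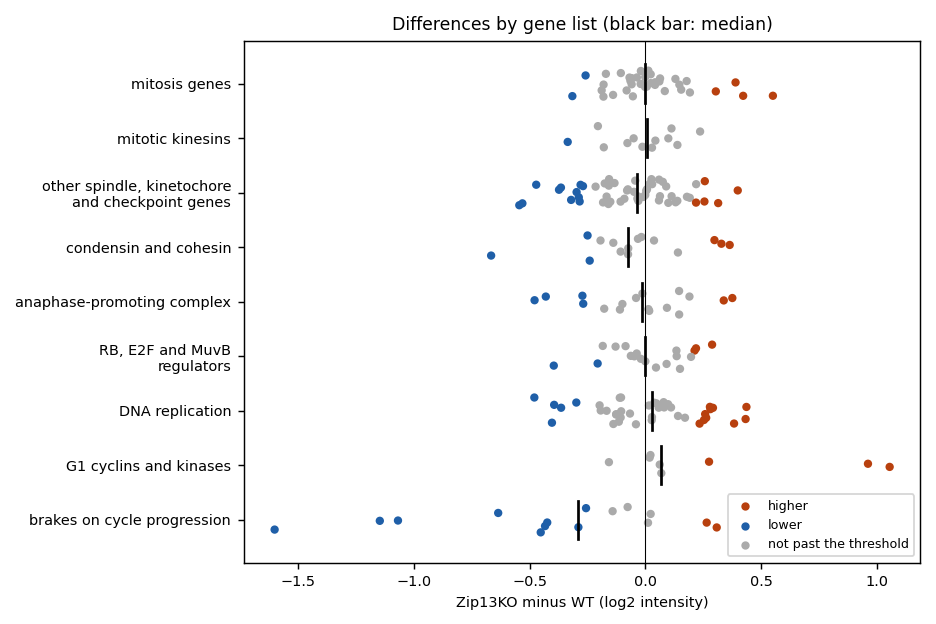
Difference between genotypes of every measured gene of the mitosis list and of 8 further cell cycle lists, in log2 intensity; orange and blue mark genes past an adjusted p of 0.05, and the black bar is the list's median. The bar of the brakes on cycle progression lies at -0.29, and those of the other lists lie between -0.07 and 0.07.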

How the data were processed

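Total RNA from the fibroblasts had been hybridised to Affymetrix arrays, 1 per sample, per the labels. The deposited intensity values are linear, not logarithms. The submitters' processing notes name RMA, a method of background correction, normalization between arrays and probe summary, and the program Affymetrix Expression Console, without versions. RMA evens out the arrays, which hides any shift common to most genes. A genome build is not given in the sources used here.

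Log2 of the deposited intensity was taken, with no pseudocount. Gene names came from the platform annotation: of 41345 rows, 23521 had 1 symbol. The 3 rows with several symbols that include a mitosis gene were not used. The brightest row per gene left 22180 genes, fitted with limma 3.58.1 in R 4.3.3 (lmFit, eBayes with an intensity trend, two-sided, Benjamini-Hochberg adjustment over all genes). Residual degrees of freedom were 2, and the prior added 15.1. The contrast is Zip13KO minus WT on all 4 arrays. The fit was tested on simulated data. Python 3.11.15 with matplotlib 3.10.9 served for promoter searches and figures.

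Every mitosis gene is described, and of each further list up to 4 genes past the threshold with the largest difference are named; Wee1 and Cdkn2b were added after their values were seen. Members and lists were chosen with earlier results of these data known. The alternatives comprised a block for replicate number, a filter on low values, a further quantile normalization, centring on the array median, eBayes without trend and with robust variances, the mean of a gene's rows, all rows fitted together and each array left out. Where 1 array remained, the other group supplied the spread. Crossed replicate numbers, and centring on chromosomal neighbours with the filter, were added after seeing the data.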

Additional observations from a re-analysis of the deposited data

How the results depend on the processing

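Of the 6 mitosis genes past the threshold, Ccnb2, Cdc25b, Mybl2 and Cdc20 kept their direction and call in every setting run. Cenpe lost its call with the replicate number as a block (adjusted p = 0.0561), with eBayes without trend (0.0538) and with all rows fitted together (0.225), which left 1 gene lower in each of these 3 fits instead of 2. After a further quantile normalization 7 were higher instead of 4, Aurka, Aurkb and Ube2c being added, while 18.8% of all genes were called against 17.1%. The filter gave 4 higher and 3 lower, and the filter with centring on neighbours 5 and 4. Leaving out each array in turn gave 3 to 5 higher and 1 to 4 lower. The median over the 39 lay between -0.07 and 0.05 in all settings, so its sign is not settled. The labels do not say that a replicate number marks a shared animal or batch. The deviations of same-numbered arrays from their group means correlated at -0.158 over all genes and at -0.325 over the mitosis genes. With the replicate block 1374 of all genes were higher and 1990 lower, against 1552 and 2234 without it. Crossed replicate numbers were added because same-numbered arrays deviated in opposite directions. They gave 7 mitosis genes higher and 6 lower, with 23.5% of all genes called. The crossing was picked from the spread of these same arrays, so a rise in calls was built in. Fitting all rows together left 669 of all genes higher and 1137 lower. Each array left out in turn gave 1125 to 1545 higher and 1590 to 2346 lower. Of the 28 genes named by rule from the further lists, 18 were called in every setting, and none reversed. The number of arrays limits the precision.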
